A study of Saccharomyces cerevisiae BY4741 with 9 samples.

Results

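The 77 genes described here encode proteins of the large (60S) subunit of the cytosolic ribosome of budding yeast. They were chosen by name from the 7130 features of the deposited table, as all RPL genes and the acidic stalk genes RPP0, RPP1A, RPP1B, RPP2A and RPP2B, and genes on chromosomes I and IX were left out. The name rule alone gave 81 genes, and the 4 on chromosome IX are the paralogues of RPL2A, RPL16B, RPL34A and RPL40B. The 77 genes make up 46 families, of which 31 have both an A and a B copy here (62 genes), 11 are single genes and 4 are represented by 1 copy. They lie on 13 chromosomes, and all 77 passed the filter on low values used for testing, a mean of at least 1 RPKM (read count divided by the feature's length in kilobases and by the library's assigned reads in units of 1000000).

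RNA was sequenced from Saccharomyces cerevisiae BY4741 of 2 genotypes, WT and scc2-4, which carries a mutant allele of SCC2. Scc2 is the subunit that loads the cohesin ring onto chromosomes together with Scc4. Both strains were grown in YPD+CSM, a rich medium supplemented with amino acids, and were collected in exponential phase, at an optical density of 0.7. The growth temperature is not stated. The labels list 9 libraries, namely 3 WT and 3 scc2-4 libraries made after ribo-depletion and 3 WT libraries made directly from the same WT RNA, and the table holds 6 columns, 3 per genotype. The names of the WT columns give genotype and replicate number but not the preparation, so preparation and genotype cannot be told apart in any comparison below if those columns are the total RNA libraries. The design text calls the 3 scc2-4 libraries biological replicates, and nothing in the labels says how the cultures were kept separate.

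The libraries held 14730000 to 21930000 reads assigned to features, and single 60S genes drew between 119 and 91714 reads in a library. LEU2, MET17 and URA3 are deleted in BY4741, and they were at 0 RPKM in all 6 libraries except for URA3 at 0.06 RPKM in scc2-4 replicate 2, while the a-factor gene MFA1 was at 85.4 RPKM or more in each. SCC2 itself was at 7.68, 10.3 and 12.2 RPKM in WT and at 16.5, 17.9 and 17.9 RPKM in scc2-4, which does not check the labels, since the allele leaves a transcript. WT replicate 1 stood apart, with a correlation across 6559 features of 0.977 and 0.968 with the other WT libraries on the log2 scale, against 0.993 between those. Counts of 60S genes below are therefore given with and without it where they rest on it. Counts of other gene lists are given with all libraries only.

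A ribosome needs its proteins in equal numbers, apart from the stalk proteins, and in growing yeast their genes are among the most strongly transcribed. Most are driven by the factor Rap1 with Fhl1 and Ifh1, and the TORC1 and protein kinase A pathways set their level by nutrient supply. An ancient genome duplication left many of them in pairs of near-identical copies, often with an intron near the start of the coding region, so that a cell can draw the same protein from either copy. Whether a pair's copies move together can be seen only where sequencing reads tell them apart.

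RPL41 is one such pair, short enough to print whole. Its copies encode the same peptide of 25 residues, and their coding sequences of 78 bases differ at 1 base, which is in capitals here; both are on the minus strand of chromosome IV (RPL41A at chrIV:130407-130484 and RPL41B at chrIV:221724-221801, sacCer3, printed 5′ to 3′).
RPL41A: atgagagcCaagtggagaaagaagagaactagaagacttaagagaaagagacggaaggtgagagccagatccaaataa
RPL41B: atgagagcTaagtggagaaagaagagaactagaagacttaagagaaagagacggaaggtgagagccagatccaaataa
Only 31% of the 50-base windows of either RPL41 gene occur once in the genome. The same share was 19% for both RPL1 genes, 27.3% for both RPL4 genes and 39.1% for both RPL11 genes, whereas it was 88.2% for both RPL15 genes and 100% for both RPL22 genes. How the deposited counting treated reads that match both copies is not given in the sources used here, so single-copy values of RPL1, RPL4, RPL11 and RPL41 are uncertain, as are those of RPL7 (74% and 75.8%) and RPL35 (64.8% and 68.6%) to a lesser degree.

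RPL22 and RPL15 are the pairs with the most unequal copies, 22.7-fold and 91.1-fold apart in RPKM. Their promoters are printed because copies that encode much the same protein differ so far in level. Each runs from 250 bases before to 50 after the start of the gene as annotated in the R64 (sacCer3) reference, on the coding strand, 5′ to 3′. Capitals mark ACACCC, a form of the core of the Rap1 site, on either strand. RPL22A lies at chrXII:262944-263243 (plus strand), RPL22B at chrVI:64883-65182 (minus strand), RPL15A at chrXII:202541-202840 (minus strand) and RPL15B at chrXIII:510299-510598 (minus strand).
RPL22A: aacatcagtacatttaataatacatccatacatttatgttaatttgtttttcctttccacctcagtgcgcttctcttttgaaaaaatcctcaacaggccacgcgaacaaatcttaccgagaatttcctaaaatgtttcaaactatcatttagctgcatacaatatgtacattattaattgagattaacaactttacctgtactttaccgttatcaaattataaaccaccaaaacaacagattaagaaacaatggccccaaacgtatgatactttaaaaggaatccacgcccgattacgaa
RPL22B: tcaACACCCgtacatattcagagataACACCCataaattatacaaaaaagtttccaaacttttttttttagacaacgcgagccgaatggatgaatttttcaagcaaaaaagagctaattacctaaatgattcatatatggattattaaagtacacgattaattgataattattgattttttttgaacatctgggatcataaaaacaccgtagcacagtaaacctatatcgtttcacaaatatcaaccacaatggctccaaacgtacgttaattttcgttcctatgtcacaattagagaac
RPL15A: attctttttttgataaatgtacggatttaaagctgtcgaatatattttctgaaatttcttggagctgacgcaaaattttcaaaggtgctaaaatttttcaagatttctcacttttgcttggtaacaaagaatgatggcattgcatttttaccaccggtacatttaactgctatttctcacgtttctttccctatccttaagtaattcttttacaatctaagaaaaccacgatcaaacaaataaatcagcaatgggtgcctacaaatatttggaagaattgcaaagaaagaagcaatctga
RPL15B: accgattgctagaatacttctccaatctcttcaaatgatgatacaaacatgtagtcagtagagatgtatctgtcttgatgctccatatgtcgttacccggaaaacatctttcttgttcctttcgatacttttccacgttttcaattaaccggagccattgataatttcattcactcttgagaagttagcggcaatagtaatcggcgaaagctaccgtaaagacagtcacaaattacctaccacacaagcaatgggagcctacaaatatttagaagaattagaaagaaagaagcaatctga
This exact string occurs at 2 places in the RPL22B window and at none in the other 3 windows. Other forms of the core were not searched, such as acatcc, which is in the RPL22A window. The marks therefore do not show which of these promoters hold a Rap1 site. Over all 77 genes, 5 windows of this length (6.49%) held ACACCC on either strand, against 5.78% of 6001 promoters in the genome. A longer form is the core followed after any 2 bases by ACA. It was in 3 of the 77 windows (3.9%), RPL22B among them, and in 0.483% of all promoters. In the 500 bases before the start, 23 of the 77 genes (29.9%) held the core, against 10.8% of 6000 promoters. The longer form was held there by 10 of the 77 (13%), against 0.933%. Of the genes printed, RPL22B and RPL15A held ACACCC within those 500 bases, and RPL22A and RPL15B did not. Such matches are letters only and say nothing of binding.

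Most 60S genes had somewhat higher values in scc2-4 than in WT, but few passed the test across all features. In the limma test on log2(RPKM + 1) with Benjamini-Hochberg adjustment over 6559 features, 5 of the 77 genes (6.49%) rose, 1 (1.3%) fell and 71 did not pass an adjusted p of 0.05. Over all features 17.5% rose and 15.0% fell (32.5% in either direction), so both shares were below those of the table as a whole, a difference that was not tested. Their log2 changes ran from -0.42 to 0.87 with a median of 0.285, against 0.05 over all features, and 70 of the 77 lay above 0. The 3 scc2-4 values were all above the 3 WT values for 36 of the 77 genes (46.8%), against 30.9% of all features, and all below for 1 gene (1.3%), against 23.6%. These are bulk values, in which a change in the share of cells that make a transcript and a change in RNA per cell cannot be told apart.

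The size of the common difference depended on WT replicate 1 and on scc2-4 replicate 3. Relative to each gene's WT mean on the centred log2 scale, the median 60S gene stood at -0.32, 0.16 and 0.18 in WT replicates 1 to 3 and at 0.15, 0.18 and 0.50 in scc2-4 replicates 1 to 3. WT replicate 1 was the lowest WT library for 74 of the 77 genes, and scc2-4 replicate 3 was the highest mutant library for 71, while the other 4 libraries lay between 0.15 and 0.18 whatever their genotype. The 77 genes took 4.76%, 6.04% and 5.95% of assigned reads in WT and 6.11%, 6.09% and 7.13% in scc2-4. Without WT replicate 1 the median log2 change was 0.11, against 0.04 over all features, with 55 genes above 0 and 22 below. Without scc2-4 replicate 3 it was 0.161, with 60 genes above 0. In the fit without WT replicate 1, 6 genes (7.79%) rose and 1 (1.3%) fell, against 20.7% and 16.5% of all features, and 5 of the 6 genes called with all libraries were among them.

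**Figure D1:**
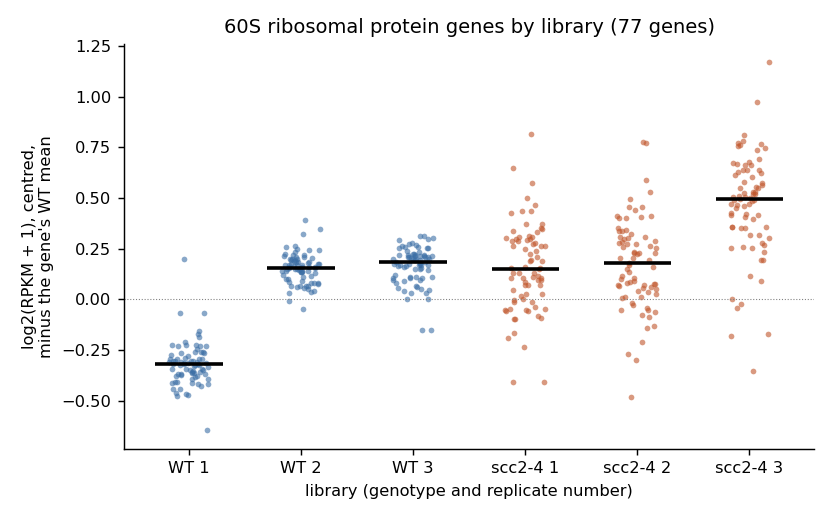
Each point is one of the 77 genes in 1 library; the vertical axis is log2(RPKM + 1), centred on the library's median feature, minus the gene's WT mean, and the bar is the median of the genes. The median gene stands at -0.32 in WT replicate 1 and at 0.50 in scc2-4 replicate 3, and the other libraries lie between 0.15 and 0.18.

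All 4 genes of complete pairs that passed the test were the lower copy of their pair, namely RPL22B, RPL7B and RPL19A, which rose, and RPL15B, which fell. RPL22B (YFL034C-A, chrVI:64243-64932) encodes one form of eL22, a non-essential protein, and Rpl22 protein is known to bind the intron of this gene's transcript. It was at 18.6, 26.8 and 26.5 RPKM in WT and at 38.1, 41.0 and 53.1 RPKM in scc2-4. Every mutant value lay above every WT value. Its mean rose from 24.0 ± 4.66 to 44.1 ± 7.94 RPKM (SD, n = 3), which is 1.82-fold on the log2(RPKM + 1) scale (log2 0.87, SE 0.21, limma adjusted p = 0.0220). Without WT replicate 1 the log2 change was 0.66 (adjusted p = 0.0126).

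The major copy RPL22A (YLR061W, chrXII:263194-263948) was at 536, 719 and 723 RPKM in WT and at 841, 821 and 990 RPKM in scc2-4. Its values did not overlap either, but the log2 change of 0.44 (SE 0.18) did not pass (limma adjusted p = 0.102). RPL22A gave 96.6%, 96.4% and 96.5% of the pair's level in WT and 95.7%, 95.2% and 94.9% in scc2-4. Outside the stalk the RPL22 copies have the lowest protein identity of any pair here, 84.4%. The reading frame BUD28 lies on the opposite strand of RPL22A and carried 1061 to 1434 RPKM in WT. Per kilobase of coding sequence, RPL22A was at 1104 to 1490 RPKM in WT. Without stated strand the reads of BUD28 cannot be told from those of RPL22A, and whether both counted the same reads was not tested.

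RPL7B (YPL198W, chrXVI:173152-174702) is the minor copy for uL30, and both RPL7 genes host a small nucleolar RNA in an intron. It was at 26.4, 38.3 and 41.1 RPKM in WT and at 62.5, 59.4 and 67.2 RPKM in scc2-4, with no overlap. The rise was 1.81-fold (log2 0.85, SE 0.20, limma adjusted p = 0.0197), and the log2 change was 0.62 without WT replicate 1 (adjusted p = 0.00229). RPL7A (YGL076C, chrVII:364335-365996) was at 187, 232 and 218 RPKM in WT and at 253, 277 and 305 RPKM in scc2-4. Here too all mutant values were higher, with a log2 change of 0.40 (SE 0.15) that did not pass (limma adjusted p = 0.0782). The reading frame YPL197C shares 360 bases with RPL7B on the opposite strand. It was at 44.5 to 81.5 RPKM in WT and 102 to 111 RPKM in scc2-4. Per kilobase of coding sequence, RPL7B was at 55.6 to 86.6 RPKM in WT and 125 to 142 RPKM in scc2-4. The same limit on strand holds for the call of RPL7B, and whether both features counted the same reads was not tested.

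RPL19A (YBR084C-A, chrII:414186-415261) encodes eL19, which reaches across to the small subunit, and its protein is identical to that of RPL19B. It was at 494, 598 and 676 RPKM in WT and at 883, 838 and 965 RPKM in scc2-4, a rise of 1.54-fold (log2 0.62, SE 0.17, limma adjusted p = 0.0309) with no overlap. RPL19B was at 1238 ± 144 RPKM in WT and 1578 ± 136 RPKM in scc2-4 (SD, n = 3), with a log2 change of 0.36 (limma adjusted p = 0.110). Without WT replicate 1 the log2 change of RPL19A was 0.46 (adjusted p = 0.0178).

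RPL15B (YMR121C, chrXIII:509734-510348) was the only 60S gene that fell. It encodes eL15 and has 99% protein identity with its partner. It was at 63.7, 49.2 and 45.3 RPKM in WT and at 39.5, 36.8 and 39.5 RPKM in scc2-4, so that all mutant values lay below all WT values and WT replicate 1 was the highest library. The log2 change was -0.42 (SE 0.12, limma adjusted p = 0.0322), and -0.32 without WT replicate 1 (adjusted p = 0.02). With no centring RPL15B missed the threshold (adjusted p = 0.0556). RPL15A (YLR029C, chrXII:201976-202590) was at 3349, 4053 and 4370 RPKM in WT and at 4217, 4077 and 4873 RPKM in scc2-4. These ranges overlapped, and the log2 change of 0.18 (SE 0.17) did not pass (limma adjusted p = 0.439). RPL15A gave 98.1%, 98.8% and 99% of the pair's level in WT and 99.1% to 99.2% in scc2-4.

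The other called genes are those whose partners lie on chromosome IX and are not analysed here. RPL16B (YNL069C, chrXIV:493956-495001), which encodes uL13, was at 1013, 1331 and 1345 RPKM in WT and at 1670, 1818 and 1850 RPKM in scc2-4, with no overlap (1.47-fold, log2 0.55, SE 0.17, limma adjusted p = 0.0447). RPL16B missed the threshold in 6 of 16 alternatives (adjusted p from 0.0262 to 0.139), among them no filter on low values (adjusted p = 0.052) and upper quartile centring (adjusted p = 0.0526), with every library kept. RPL40B (YKR094C, chrXI:617996-618750) encodes a fusion of ubiquitin to eL40 that is cut after translation, and it was the lowest 60S gene of all. It was at 10.7, 10.9 and 10.2 RPKM in WT and at 13.8, 12.5 and 16.9 RPKM in scc2-4, again without overlap (1.33-fold, log2 0.41, SE 0.13, limma adjusted p = 0.0499). RPL40B missed the threshold in 11 of 16 alternatives (adjusted p from 0.0411 to 0.144), among them the fit without WT replicate 1 (adjusted p = 0.0679). RPL2A and RPL34A did not pass, with log2 changes of 0.19 and 0.40.

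Each of the 6 calls was lost when some single library was left out. Without scc2-4 replicate 2 or without scc2-4 replicate 3 no 60S gene rose and none fell, while over all features the calls also shrank from 2133 to 781 and 766. Without scc2-4 replicate 1, RPL22B alone remained, and without WT replicate 2 RPL22B and RPL7B did. The highest adjusted p over the fits that left out 1 library was 0.0789 for RPL22B, 0.0767 for RPL7B, 0.108 for RPL19A, 0.139 for RPL16B and 0.112 for RPL15B.

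**Figure D2:**
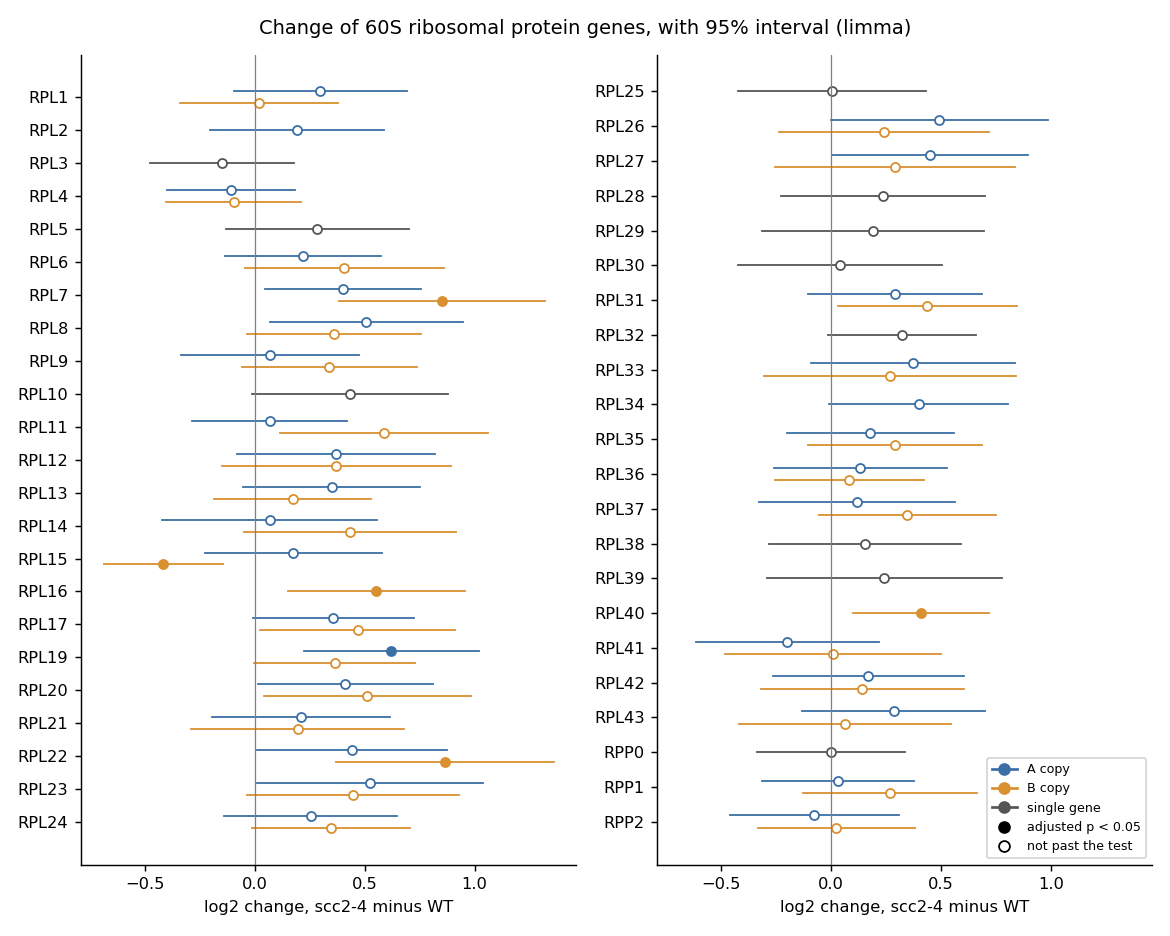
The log2 change of the genes of 45 families (scc2-4 minus WT, log2(RPKM + 1) scale) with its 95% interval from limma, by family, for A copies, B copies and single genes; filled points passed an adjusted p of 0.05. The 6 filled points are RPL7B, RPL16B, RPL19A, RPL22B and RPL40B above 0 and RPL15B below it, and most of the open points lie to the right of 0 with intervals that cross it.

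Within a pair, the copies differed in level from 1.04-fold (RPL12) to 91.1-fold (RPL15), with a median of 1.91-fold on the RPKM scale, per kilobase of gene with introns included. The A copy was the higher one in 17 pairs and the B copy in 14, and in 28 of the 31 pairs the same copy was higher in all 6 libraries. None of the 31 higher copies passed the test, whereas 3 of the 31 lower copies rose (9.68%) and 1 fell (3.23%), beside 17.5% and 15.0% over all features. The lower copies include the genes with few reads, and the test of a difference in change between lower and higher copies is the ratio of the copies, given next. With the reads of both copies summed, none of the 31 pairs passed; the nearest were RPL7 (log2 0.47, limma adjusted p = 0.0529) and RPL19 (log2 0.46, limma adjusted p = 0.0640).

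The ratio of A to B removes whatever shifts a library's 60S genes as a whole. It did not overlap between the genotypes in 17 of the 31 pairs (54.8%), about the share of single features whose genotypes did not overlap in either direction (54.5%), and 14 of the 23 pairs of 40S genes (60.9%) did the same. All 17 reached the smallest p that 3 against 3 libraries allow (0.1 in an exact two-sided permutation test, 0.182 after Benjamini-Hochberg adjustment over 31 pairs), so the test could pass none of them. The lower copy made up more of its pair in scc2-4 in 12 of the 17 and less in 5. Over all 31 pairs, overlapping or not, the lower copy made up more in 20. The 12 include RPL1 and RPL11, whose single-copy values are uncertain. The median absolute shift was 0.18 on the log2 scale in 60S pairs and 0.18 in 40S pairs. Without WT replicate 1, 20 pairs did not overlap.

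With all libraries, RPL15 differed most in the ratio. Its log2 ratio of A to B was 5.69, 6.34 and 6.56 in WT and 6.70, 6.75 and 6.91 in scc2-4, a difference of 0.59 in favour of the major copy, with WT replicate 1 the lowest. Without that library the difference in log2 ratio was 0.34 for RPL15, below the size of those of RPL11 (-0.42), RPL22 (-0.40) and RPL7 (-0.35). RPL11, whose protein uL5 joins the subunit with 5S ribosomal RNA, differed in the other direction. Its log2 ratio was 2.24, 1.94 and 1.94 in WT and 1.54, 1.52 and 1.51 in scc2-4, a difference of -0.52.

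RPL11B (YGR085C, chrVII:648383-648907) accounts for most of that difference, at 169, 230 and 256 RPKM in WT and 308, 301 and 357 RPKM in scc2-4. All mutant values were higher, but the log2 change of 0.59 (SE 0.20) did not pass (limma adjusted p = 0.0600); without WT replicate 1 the change was 0.37 and did pass (adjusted p = 0.0387). RPL11A (YPR102C, chrXVI:731224-731748) was at 801, 888 and 986 RPKM in WT and 896, 866 and 1019 RPKM in scc2-4, which overlapped (log2 0.07, limma adjusted p = 0.736). With 39.1% of their windows found once, part of the reads of either RPL11 gene could belong to the other.

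The log2 ratio of RPL7A to RPL7B was 2.78, 2.57 and 2.38 in WT and 2.00, 2.2 and 2.17 in scc2-4, a difference of -0.45. For RPL22 the difference was -0.42, with 4.77, 4.69 and 4.72 in WT and 4.43, 4.29 and 4.20 in scc2-4. In both pairs the scc2-4 ratios were all lower, and RPL22 had the tighter WT values. At the other end, the difference in log2 ratio was -0.00168 for RPL12, whose protein uL11 forms the base of the stalk, and -0.01 for RPL4.

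**Figure D3:**
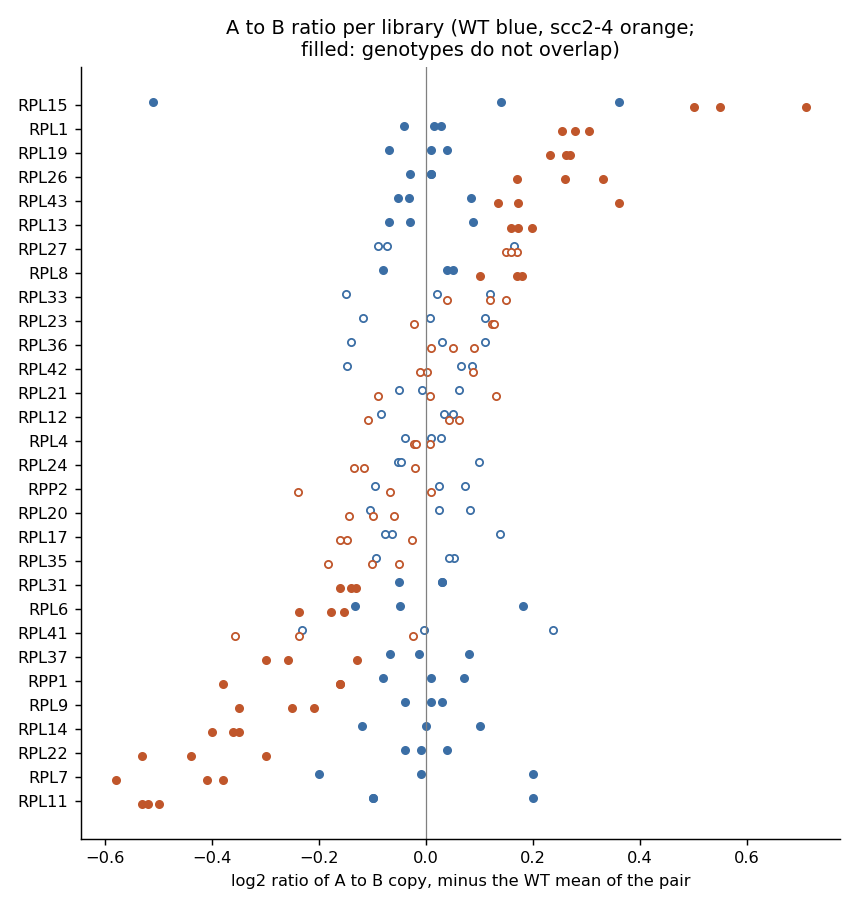
The log2 ratio of the A to the B copy in each library, minus the WT mean of the pair, for 30 pairs in order of the difference; filled points mark the 16 plotted pairs in which the WT and scc2-4 libraries do not overlap. The scc2-4 points of RPL15 lie farthest right and those of RPL11, RPL7 and RPL22 farthest left, and the 3 WT points of RPL15 are the most spread.

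**Figure D4:**
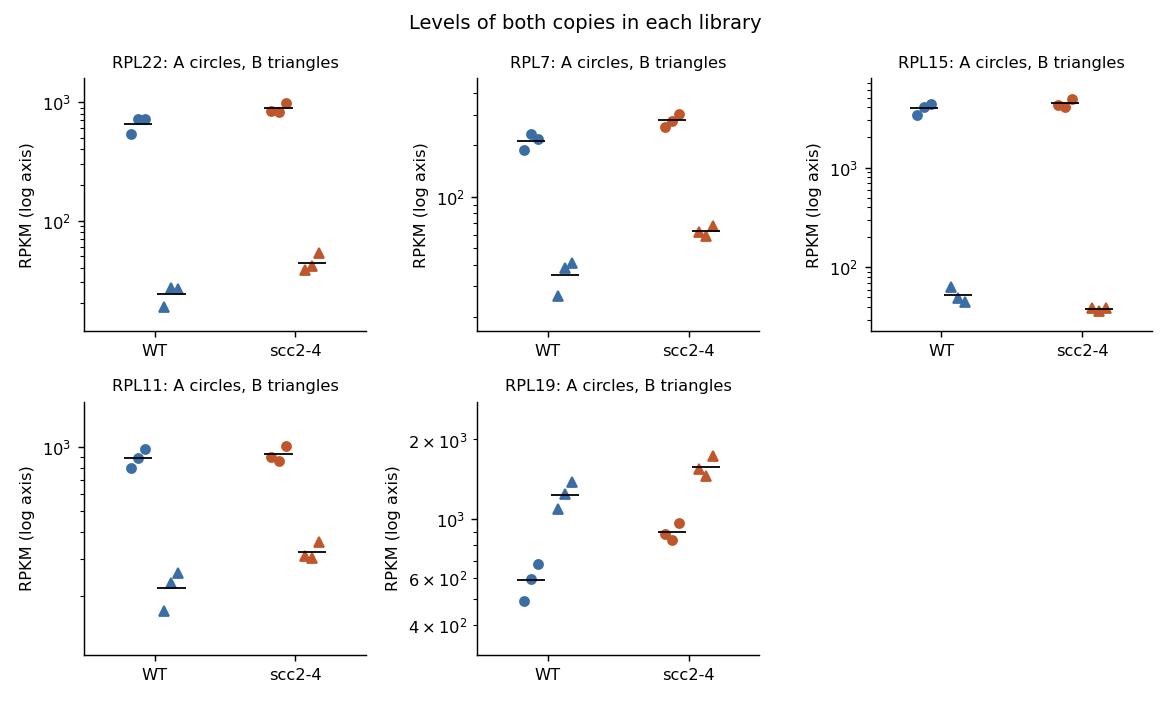
RPKM on a log axis of both copies of 5 pairs in each library, WT in blue and scc2-4 in orange, A copies as circles and B copies as triangles, with the mean as a bar. RPL22B and RPL7B rise in scc2-4 by 1.82-fold and 1.81-fold while RPL15B is lower, and the major copies lie above the minor ones in both genotypes, the major copy being B in RPL19 and A in the others.

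None of the 11 single genes passed the test (0 of 11), beside 32.5% of all features in either direction. None was at an unadjusted p under 0.05 in limma, beside 3054 of 6559 features. Their log2 changes had a median of 0.19. RPL10, which encodes uL16, the protein whose late joining completes the subunit, was the highest 60S gene. It was at 3918, 5104 and 5174 RPKM in WT and 6076, 5641 and 7258 RPKM in scc2-4, with every mutant value above every WT value (log2 0.43, SE 0.19, limma adjusted p = 0.116). Per kilobase of coding sequence RPL10 had a mean of 5520 RPKM over the 6 libraries and RPL40B, at the bottom, 24.3 RPKM. The reading frame YLR076C overlaps RPL10 on the opposite strand and carried 3560 to 4651 RPKM in WT.

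RPL3, whose protein lies beside the peptidyl transferase centre, had the lowest log2 change of the single genes, at -0.15. RPL5, whose protein binds 5S ribosomal RNA beside that of RPL11, was at 0.285. RPL25, whose protein sits at the tunnel exit where the signal recognition particle docks, was at 0.01, and RPL39, which lines that exit, was at 0.24. RPL30, whose protein is known to block splicing of its own transcript, was at 0.04. RPL28, RPL29, RPL32 and RPL38 were at 0.24, 0.19, 0.32 and 0.16. Without WT replicate 1 these log2 changes were lower throughout, at 0.26 for RPL10, 0.21 for RPL32, 0.11 for RPL5, 0.06 for RPL28, 0.02 for RPL39 and 0.00367 for RPL29. In that fit RPL38 was at -0.03, RPL30 at -0.14, RPL25 at -0.15 and RPL3 at -0.23.

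The P stalk, an acidic arm that recruits and activates the translation factors, is the only part of the subunit with more than 1 copy of a protein. Its 5 genes had log2 changes from -0.07 to 0.27. None passed (0 of 5, none at an unadjusted p under 0.05 in limma), beside 32.5% of all features in either direction. RPP0, the anchor, was at 3665, 4569 and 4009 RPKM in WT and 3980, 4231 and 3894 RPKM in scc2-4. Its libraries overlapped throughout, with a log2 change of -0.00104 whose sign changed with the centring.

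RPP1A was at 3178, 3930 and 3729 RPKM in WT and 3516, 3732 and 3728 RPKM in scc2-4 (log2 0.03), and RPP2B at 3272, 4014 and 3588 RPKM in WT and 3413, 3533 and 4028 RPKM in scc2-4 (log2 0.03). RPP2A was at 2536, 3495 and 3021 RPKM in WT and 2844, 2793 and 2826 RPKM in scc2-4 (log2 -0.07). For these 3 genes the genotypes overlapped. RPP1B, the lowest of the stalk genes and the only one with an intron, was at 473, 627 and 533 RPKM in WT and 591, 629 and 730 RPKM in scc2-4 (log2 0.27), with overlap as well. The log2 ratio of RPP1A to RPP1B did not overlap, at 2.74, 2.65 and 2.8 in WT and 2.57, 2.57 and 2.35 in scc2-4. RPP1 was thus among the 17 pairs counted above, while the ratio of RPP2A to RPP2B overlapped. The stalk copies are also the most different in sequence, with 59.6% protein identity between RPP1A and RPP1B and 61.8% between RPP2A and RPP2B, and all of the 50-base windows of the 4 genes occur once.

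The genes were also set apart by their introns, a grouping chosen after the values were seen. Of the 77 genes 49 have an intron. All 49 had log2 changes above 0, with a median of 0.29, and 5 rose (10.2%), beside 17.5% over all features. Of the 28 genes without an intron, 21 lay above 0 and 7 below, with a median of 0.17, none rose and 1 fell. Without WT replicate 1 the medians were 0.145 (41 above 0, 8 below) and -0.01 (14 above, 14 below). RPKM counted the intron as part of the gene, so a value of a gene with an intron holds spliced and unspliced RNA together.

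3 features of the table lie wholly inside introns of these genes, and they were singled out after their values were seen. SNR39, a box C/D small nucleolar RNA in an intron of RPL7A, was at 80.2, 111 and 93.9 RPKM in WT and 138, 137 and 151 RPKM in scc2-4, with no overlap (1.52-fold, limma adjusted p = 0.0282), and lost its call when any 1 of the scc2-4 replicates was left out. SNR59, a small nucleolar RNA of the same class in an intron of RPL7B, was at 12.3, 7.43 and 13.2 RPKM in WT and 22.7, 31.4 and 39.1 RPKM in scc2-4, with no overlap (2.7-fold, limma adjusted p = 0.00975). These SNR59 values rest on 10 to 53 reads per library.

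YMR141W-A, a reading frame on the opposite strand within the intron of RPL13B, was at 17.0, 13.0 and 14.9 RPKM in WT and 29.0, 24.0 and 30.2 RPKM in scc2-4, also with no overlap (1.81-fold, limma adjusted p = 0.00477). The calls of SNR59 and YMR141W-A held in all 16 alternatives. Their host genes had log2 changes of 0.40 (RPL7A), 0.85 (RPL7B) and 0.17 (RPL13B). Without stated strand and splice-aware counting, reads of an intron feature, of unspliced host RNA and of an antisense RNA cannot be told apart.

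**Figure D5:**
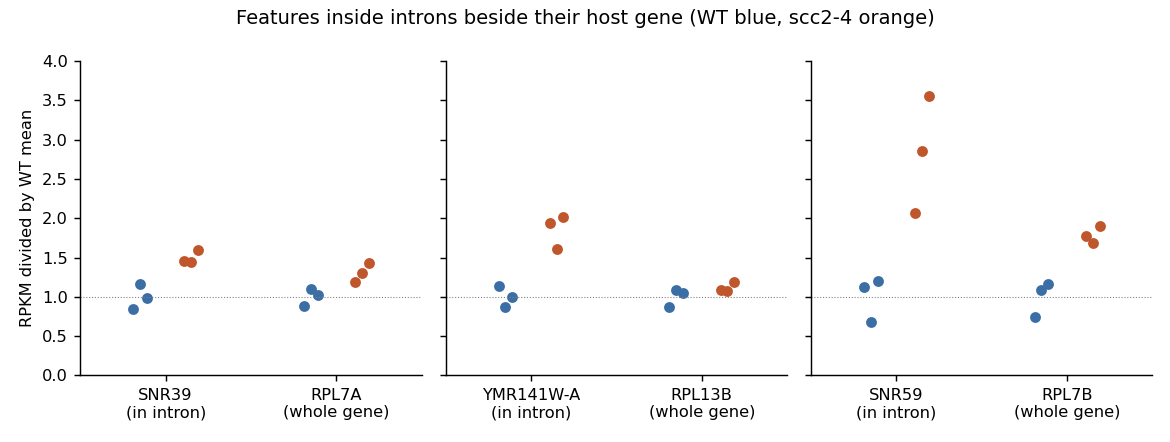
RPKM divided by the WT mean of each feature, for the 3 features inside introns and the whole host gene beside each, in WT (blue) and scc2-4 (orange) libraries. All scc2-4 points of the intron features lie above the WT points, and the log2 change is 0.17 for RPL13B and 0.86 for YMR141W-A in its intron.

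Other genes of the pathway were counted from 3 lists. Of 55 genes for 40S proteins 5 rose (9.09%) and none fell, with a median log2 change of 0.33, beside 17.5% and 15.0% of all features. Those with the smallest p were RPS0B (1.76-fold), RPS28B (2.61-fold), RPS9A (2.1-fold) and RPS0A (1.58-fold), all higher in scc2-4 with limma adjusted p of 0.0124, 0.0134, 0.0167 and 0.0388. For each of these genes WT replicate 1 was the lowest WT library.

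Of 24 regulators of ribosomal protein gene transcription 4 rose (16.7%) and 1 fell (4.17%), beside 17.5% and 15.0% of all features. Their median log2 change was 0.09. TOD6, a repressor of ribosome biogenesis genes, rose from 1.62 ± 0.53 to 5.58 ± 0.65 RPKM (SD, n = 3; 2.56-fold, limma adjusted p = 0.00598). YAK1, a kinase that acts against growth, was the 1 that fell, from 52.4 ± 17.7 to 22.8 ± 2.67 RPKM (adjusted p = 0.0082). In WT it was at 72.84, 43.05 and 41.29 RPKM, with replicate 1 the highest. SCH9, the kinase downstream of TORC1, rose 1.49-fold (adjusted p = 0.0168) and IFH1, the coactivator of ribosomal protein genes, rose 2.11-fold (adjusted p = 0.0171). WT replicate 1 was the lowest WT library for IFH1, at 4.94 RPKM beside 8.05 and 9.71 RPKM.

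Of 28 chaperones, importers and late 60S factors 9 rose (32.1%) and none fell, beside 17.5% and 15.0% of all features, a difference that was not tested. Their median log2 change was 0.50. YAR1, the chaperone of a 40S protein, rose 1.77-fold (limma adjusted p = 0.012), TSR2, also a 40S protein chaperone, 2.6-fold (adjusted p = 0.0129), JJJ1, which acts in cytoplasmic 60S maturation, 1.58-fold (adjusted p = 0.016) and ALB1, a shuttling 60S factor, 3.84-fold (adjusted p = 0.0172). In ALB1 the WT values were 12.5, 34.2 and 41.9 RPKM, of which replicate 1 was far the lowest. The scc2-4 values of ALB1 were 95.8, 101 and 113 RPKM. WT replicate 1 was also the lowest WT library for TSR2, at 15.5 RPKM beside 25.0 and 32.7 RPKM. The same held for YAR1 (37.0 beside 48.0 and 50.7 RPKM) and JJJ1 (6.01 beside 7.46 and 7.95 RPKM).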

How the data were processed

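The 9 labelled yeast libraries were sequenced by the authors, who per the submitters' processing notes aligned reads with Bowtie to sacCer3. Of these, 6 are in the deposited values, 3 WT and 3 scc2-4. The aligner's version, the counting tool and any use of strand were not given in the sources used here. RPKM is the unit of the table deposited by the authors. Multiplied by feature length, introns included, these values summed to 1000000 per library, so they are relative to reads in features rather than to all reads. Depth was read from low values, of which 100% lay within 0.1 of a whole read. The limma p-values set the difference between genotypes against the spread among these libraries.

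Values were transformed to log2(RPKM + 1), centred on each library's median feature, filtered at a mean RPKM of 1 (6559 of 7130 features kept), and tested with limma 3.58.1 in R 4.3.3 with a variance trend and Benjamini-Hochberg adjustment over all features. On this scale fold changes of low genes are understated. On data simulated for this comparison, 89.6% of 67 features changed 1.5-fold and 100% of 67 changed 2-fold were found. These were among 6532 tested, with 7.21% false calls. The simulated data had a log2 SD of 0.167, and the shares hold for that spread only. Among the genes described here, RPL11B at 1.50-fold (limma adjusted p = 0.0600) and RPL18B at 1.48-fold (adjusted p = 0.149) did not pass. RPL19A at 1.54-fold (adjusted p = 0.0309) and RPL16B at 1.47-fold (adjusted p = 0.0447) did pass. What share of such genes would be found at 1.5-fold was not tested. Ratios of A to B were compared by exact two-sided permutation in scipy 1.17.1. Python 3.11.15, pandas 2.3.3, Biopython 1.88 and matplotlib 3.10.9 did the rest. All 77 genes had the same start and end in the R64 annotation, from whose genome the sequences were read by coordinates.

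The genes, the lists, the tests and the alternatives were chosen with earlier results of these data known. Values in every library are given for genes past an adjusted p of 0.05, both copies of 4 of the 5 pairs that differ most in log2 change (the other is not reported here), the highest and lowest gene and the stalk genes; single genes are given with their change, and from each list the 4 genes with the smallest p. In the lists, CKA1, SQT1 and YVH1 lie on chromosome IX and were left out.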

Additional observations from a re-analysis of the deposited data

How the results depend on the processing

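The tests were repeated under other pseudocounts, filters, centrings and variance models, with a replicate block, with pairs summed and without each library. The count of 60S genes that rose, 5 of 77, was 3 with no filter, 12 with the replicate block and 1 with pairs summed into 46 features, and it ran from 0 to 7 when 1 library was left out. The count that fell, 1, was 0 with no centring and 0 with pairs summed, and it ran from 0 to 1 without 1 library. The count over all features, 2133, ran from 766 to 2442 without 1 library. The number of pairs whose ratio did not overlap stayed between 17 and 20. Whether replicate numbers pair the libraries was not settled. Deviations of same-numbered libraries correlated at 0.305, -0.0622 and 0.353, and those of differently numbered libraries at -0.398 to 0.260. The block is therefore a hint only.

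Some values changed sign. RPL25 was at -0.00158 with no filter and -0.00511 with no centring. RPP0 was at 0.00783 with a filter at 10 RPKM, 0.000905 with upper quartile centring and 0.0236 with centring on features outside chromosomes I and IX. Summed pairs gave 0.169 for RPL15B with RPL15A and -0.0181 for RPP2B with RPP2A. When 1 library was left out, RPL11A ran from -0.0476 to 0.166, RPL25 ran from -0.152 to 0.103, RPL30 ran from -0.143 to 0.2, RPL38 ran from -0.0307 to 0.26, RPP0 ran from -0.117 to 0.0976, RPP1A ran from -0.0966 to 0.112, RPP2A ran from -0.234 to 0.0521 and RPP2B ran from -0.0873 to 0.115. The mean value subtracted in centring differed between genotypes by under 0.1 on the log2 scale under every pseudocount, filter, centring and variance model. With no centring nothing was subtracted. Depth and the span-based unit limit genes with few reads (RPL40B, RPL22B) and pairs with few distinct windows, and the cause of each change above was not tested.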
